A study of Mus musculus with 10 samples.

Results

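The genes described here are 10 that govern how fat is broken down: the intracellular lipases Pnpla2, Lipe, Mgll and Pnpla3, the lipase coactivator Abhd5, the lipase inhibitors G0s2 and Hilpda, and lipoprotein lipase, Lpl, with its partners Gpihbp1 and Lmf1. They were chosen by name, and all 10 have a row among the 24640 gene symbols of the deposited count table. The counts come from RNA sequencing of brown adipocytes (strain C57BL/6), heat-producing fat cells, in 10 libraries, 2 for each of 5 groups. The groups are cells given BML-260 for 3 days, BML-260 for 1 day, ISO, DMSO for 3 days and DMSO for 1 day. BML-260 is marketed as a Dusp22 phosphatase inhibitor, DMSO is the solvent given to controls, and ISO is a treatment that the labels do not spell out. The time of ISO is uncertain: its time label reads 1 day, but the series' design gives times for BML-260 and DMSO only, and of the authors' deposited tables with ISO one sets it beside the 3-day groups alone and none beside the 1-day groups alone. Which DMSO group matches ISO in time is therefore not known, and ISO is set against both. The labels give no genotype beyond the strain and no dose, and the titles number the 2 libraries of each group. Nothing says that these were separate cultures or mice. The spread behind each p-value is therefore only that between these libraries and could be technical.

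Lipolysis takes the stored triglyceride of the lipid droplet apart one fatty acid at a time. Pnpla2 (ATGL) removes the first fatty acid, Lipe (hormone-sensitive lipase) acts on the diglyceride that remains, and Mgll (monoglyceride lipase) frees the last fatty acid from glycerol. Abhd5 (CGI-58) switches Pnpla2 on, while G0s2 and Hilpda bind Pnpla2 and inhibit it. Pnpla3 is a close relative of Pnpla2 that can also bind Abhd5. Lpl works outside the cell on the triglyceride of circulating lipoproteins: Lmf1 is needed for its folding in the endoplasmic reticulum, and Gpihbp1, a protein of capillary endothelial cells, carries it to the vessel wall. In brown adipocytes the fatty acids from both routes are fuel for heat production. The values below are messenger RNA levels. They say nothing of enzyme activity, and several of these proteins are known to be controlled after translation.

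Library totals ran from 16955918 to 21185675 counts, and 15212 genes, 9 of the 10 described here among them, passed the filter on low counts. Levels are given as CPM, each gene's counts scaled to the TMM-adjusted size of its library. All 10 brown adipocyte markers looked up had counts. Their summed level was 7876 to 8109 CPM with BML-260 for 3 days against 7538 to 7704 CPM with DMSO for 3 days, and 13490 to 14000 CPM with BML-260 for 1 day against 10080 to 10220 CPM with DMSO for 1 day, with ISO at 7012 to 7322 CPM. Most of that sum is Fabp4, which had 5729 and 5647 CPM with BML-260 for 3 days, against 4674 and 4524 CPM with DMSO for 3 days. At 1 day it had 10310 and 10560 CPM with BML-260, against 6517 and 6268 CPM with DMSO. The sum thus does not give the direction of the other markers. Of the 10 markers 4 rose and 5 fell with BML-260 at each time, as given below with the shares of all genes. Markers of preadipocytes and fibroblasts summed to 293 to 303 CPM with BML-260 for 3 days against 502 to 546 CPM with DMSO for 3 days, and to 189 to 201.5 CPM with BML-260 for 1 day against 285.5 to 299 CPM with DMSO for 1 day, with ISO at 452 to 481.5 CPM. Those of smooth muscle and pericytes summed to 184 to 209 CPM with BML-260 for 3 days against 348 to 359 CPM with DMSO for 3 days, and to 212 to 223 CPM with BML-260 for 1 day against 318.9 to 319.7 CPM with DMSO for 1 day, with ISO at 285 to 315 CPM. Most of the preadipocyte and fibroblast sum is Fbn1. Its mean was 162 CPM with BML-260 against 323 CPM with DMSO at 3 days, and 103 against 174 CPM at 1 day. Of the 6 tested markers of that list 5 fell at 3 days and 3 at 1 day. None rose, beside 18.3% and 8.62% of all genes lower. Macrophage markers summed to 7.24 CPM at most, endothelial markers to 2.39 CPM at most and skeletal muscle markers to 1.43 CPM at most. In bulk libraries such as these, fewer cells of a type and less RNA per cell cannot be told apart, and the part of the cell makeup in the results below was not tested.

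The promoters of 8 of the 10 genes were matched by symbol in RefSeq's table (GRCm38.p6). Shown here are 5 windows of genes whose levels moved most, each from 250 bases before to 50 after an annotated start, 5′ to 3′ on the gene's strand. Capitals mark matches to CACGTG (E-box), ACGTG (the core of a hypoxia response element, which every E-box contains), TGACGTCA (cyclic AMP response element, CRE) and TGACG (the core that every full CRE contains), on either strand.
Pnpla3, chr15:84167566-84167865, + strand: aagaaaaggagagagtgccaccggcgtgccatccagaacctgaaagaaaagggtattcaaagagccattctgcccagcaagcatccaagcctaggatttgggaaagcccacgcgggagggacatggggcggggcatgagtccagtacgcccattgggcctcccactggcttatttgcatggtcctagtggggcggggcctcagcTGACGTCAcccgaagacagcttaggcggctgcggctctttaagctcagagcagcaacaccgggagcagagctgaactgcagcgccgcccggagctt
Lipe, chr7:25395938-25396237, - strand: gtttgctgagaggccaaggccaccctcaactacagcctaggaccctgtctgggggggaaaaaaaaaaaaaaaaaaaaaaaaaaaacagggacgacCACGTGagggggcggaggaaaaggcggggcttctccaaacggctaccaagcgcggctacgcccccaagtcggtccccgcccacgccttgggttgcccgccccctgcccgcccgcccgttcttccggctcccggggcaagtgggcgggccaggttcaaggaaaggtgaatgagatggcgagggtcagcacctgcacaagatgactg
Mgll, chr6:88724162-88724461, + strand: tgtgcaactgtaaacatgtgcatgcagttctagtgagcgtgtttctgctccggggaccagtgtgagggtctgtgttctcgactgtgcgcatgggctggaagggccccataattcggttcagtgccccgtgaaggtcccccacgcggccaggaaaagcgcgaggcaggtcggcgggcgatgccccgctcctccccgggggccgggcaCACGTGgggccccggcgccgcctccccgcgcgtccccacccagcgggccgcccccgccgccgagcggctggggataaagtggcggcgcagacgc
G0s2, chr1:193273139-193273438, - strand: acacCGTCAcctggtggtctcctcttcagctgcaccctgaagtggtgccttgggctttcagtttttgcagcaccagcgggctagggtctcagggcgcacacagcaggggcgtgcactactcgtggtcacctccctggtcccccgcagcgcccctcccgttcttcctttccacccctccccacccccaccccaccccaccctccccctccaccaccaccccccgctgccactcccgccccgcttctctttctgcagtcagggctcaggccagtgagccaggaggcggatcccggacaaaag
Hilpda, chr6:29272376-29272675, + strand: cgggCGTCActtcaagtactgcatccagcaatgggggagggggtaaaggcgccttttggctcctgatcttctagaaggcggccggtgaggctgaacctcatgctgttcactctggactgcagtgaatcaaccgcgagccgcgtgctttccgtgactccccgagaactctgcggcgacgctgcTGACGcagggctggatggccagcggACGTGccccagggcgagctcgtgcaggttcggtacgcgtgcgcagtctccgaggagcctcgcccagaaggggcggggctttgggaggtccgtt
The full CRE in the Pnpla3 window starts at position -46, counting the annotated start as 0, and TGACGTCA was found in 1.79% of all 32851 promoter windows of this length. The E-box starts at -155 in the first of the Lipe windows and at -44 in the first of the Mgll windows, and CACGTG was found in 7.15% of all windows. The Hilpda window, the second of its pair, holds ACGTG at -43, as 19.6% of all windows hold that core. It also holds TGACG at -68 and, on the opposite strand, at -246. The G0s2 window holds TGACG only, on the opposite strand at -246, and 20.8% of all windows hold that core. A search of all the members' windows for the PPAR response element (AGGTCA in direct repeat, spaced by 1 base), present in 0.0396% of windows, found no match. Such matches describe letters in these windows and say nothing of whether a factor binds there.

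With BML-260 for 3 days the messenger RNA of the intracellular lipases was lower than with DMSO for 3 days, that of Pnpla3, Mgll and Lipe most. Of the 9 genes tested, 6 fell and 1, Hilpda, rose, where 35.5% of all genes tested changed, 18.3% of all being lower and 17.3% higher. Called changed here means an adjusted p under 0.05 by edgeR's quasi-likelihood test with Benjamini-Hochberg adjustment over all 15212 genes. The median log2 fold change was -0.29 over the 9 genes and -0.02 over all genes. At 1 day 3 fell (Pnpla3, G0s2 and Mgll) and again Hilpda alone rose, beside 17.9% of all genes (8.62% lower and 9.32% higher), with a median log2 fold change of -0.09 over the 9 genes and -0.001 over all. The difference between the effects at 3 days and at 1 day passed for 4 of the 9, all further down at 3 days (Lipe, Pnpla3, Mgll and Lpl), beside 8.44% of all genes (4.51% down and 3.93% up). With DMSO alone 5 of the 9 were lower at 3 days than at 1 day and 2, Hilpda and Lpl, higher, beside 34.9% of all genes (16.8% lower and 18.1% higher). Of these calls that of Lpl (0.13, edgeR adjusted p = 0.03) was lost with upper-quartile scaling (0.074) and without replicate 2 of DMSO for 1 day (0.35), replicate 1 of DMSO for 3 days (0.23) or replicate 2 of DMSO for 3 days (0.08).

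**Figure D1:**
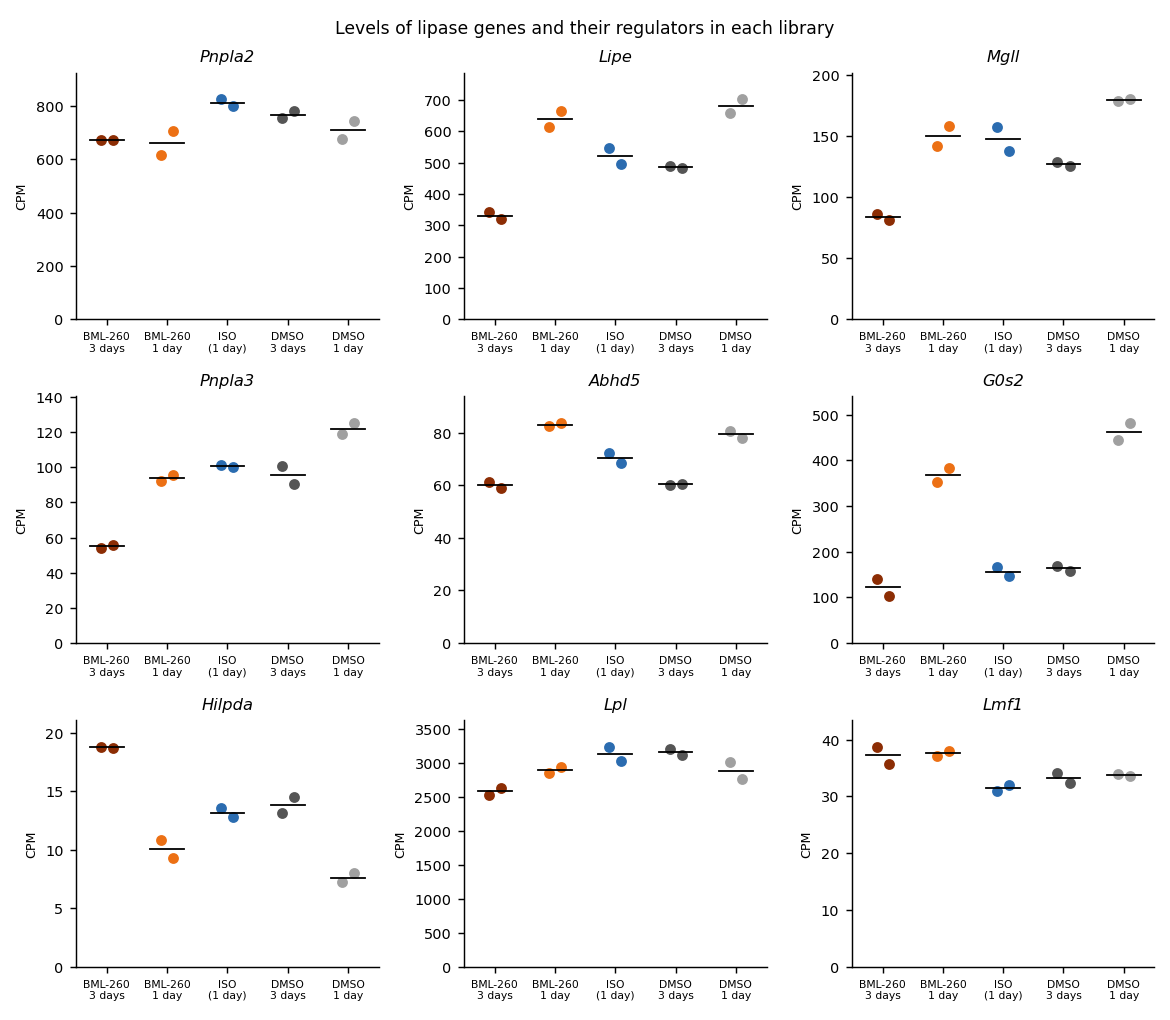
Level in CPM (y axis, from 0) of the 9 measured genes in each of the 10 libraries, by treatment and time (x axis); points are libraries and lines the means of 2. G0s2 is at 351 CPM or more in all 4 libraries of BML-260 or DMSO for 1 day and at 168.5 CPM or less in the other 6, and Pnpla3, Lipe and Mgll are lowest with BML-260 for 3 days.

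Pnpla3 fell the most of the lipases. It had 54.3 and 55.9 CPM in the libraries of BML-260 for 3 days, against 101 and 90.7 CPM in those of DMSO for 3 days. The 1-day libraries had 92.5 and 95.8 CPM with BML-260, against 119 and 125 CPM with DMSO. The libraries of the treatments did not overlap at either time. The log2 fold change was -0.79 at 3 days (SE 0.057, edgeR adjusted p = 2.5e-11), a fall of 1.73-fold, and -0.38 at 1 day (SE 0.053, edgeR adjusted p = 9.8e-06). The effect at 3 days minus that at 1 day was -0.42 (SE 0.078, edgeR adjusted p = 0.0012).

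Lipe, hormone-sensitive lipase, moved at 3 days. It had 344 and 318.5 CPM with BML-260 for 3 days, against 489 and 482 CPM with DMSO for 3 days, with no overlap. At 1 day the treatments overlapped, with 615 and 666 CPM with BML-260 against 658 and 703 CPM with DMSO. BML-260 over DMSO gave a log2 value of -0.55 at 3 days (SE 0.053, edgeR adjusted p = 5.6e-09). At 1 day it was -0.09, with a 95% interval of -0.19 to 0.02 (edgeR adjusted p = 0.27). The difference between both effects, -0.46 (SE 0.074, edgeR adjusted p = 0.00027), was the largest of the 9 genes. The DMSO libraries themselves were lower at 3 days than at 1 day, by a log2 fold change of -0.49 (edgeR adjusted p = 4.2e-08), and BML-260 for 3 days had the lowest Lipe of the 5 groups.

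Mgll, which completes the breakdown, had 86.4 and 81.3 CPM with BML-260 for 3 days, against 129 and 126 CPM with DMSO for 3 days. After 1 day there were 142 and 158 CPM with BML-260, against 178.5 and 180.4 CPM with DMSO. Every library of BML-260 was below both DMSO libraries of its time. The log2 fold change was -0.61 at 3 days (SE 0.061, edgeR adjusted p = 1.3e-08) and -0.26 at 1 day (SE 0.057, edgeR adjusted p = 0.0022). At 1 day the call was lost without replicate 1 of BML-260 (edgeR adjusted p = 0.071). The difference between both effects was -0.35 (edgeR adjusted p = 0.0088). That call was lost without replicate 2 of BML-260 for 1 day (edgeR adjusted p = 0.06), replicate 2 of BML-260 for 3 days (0.059) or replicate 1 of DMSO for 3 days (0.074).

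Pnpla2, the lipase that starts lipolysis, moved little. It had 673 and 672 CPM with BML-260 for 3 days, against 754 and 782 CPM with DMSO for 3 days. At 1 day it had 615 and 707 CPM with BML-260, against 675 and 743 CPM with DMSO, and the treatments overlapped. BML-260 over DMSO gave a log2 value of -0.19 at 3 days (SE 0.053, edgeR adjusted p = 0.0063), and the level fell by 12.4%. This call was lost without replicate 2 of DMSO for 3 days (edgeR adjusted p = 0.15) and with DESeq2 (adjusted p = 0.096). At 1 day the log2 fold change was -0.10, with a 95% interval of -0.21 to 0.01. Without replicate 2 of BML-260 for 1 day it was -0.20 and passed (edgeR adjusted p = 0.017).

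Abhd5, the coactivator of Pnpla2, did not pass in either comparison of BML-260 with DMSO. It had 61.4 and 58.8 CPM with BML-260 for 3 days, against 60.3 and 60.5 CPM with DMSO for 3 days, and the groups overlapped. The 1-day libraries had 82.4 and 83.8 CPM with BML-260, against 80.8 and 78.0 CPM with DMSO. The 95% interval of the log2 fold change was -0.12 to 0.10 at 3 days and -0.04 to 0.17 at 1 day. It differed between times: with DMSO the log2 fold change at 3 days over 1 day was -0.39 (SE 0.053, edgeR adjusted p = 1.8e-06).

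G0s2, the inhibitor, had the widest range of the 9 genes. It had 140.1 and 103 CPM with BML-260 for 3 days, against 168.5 and 157 CPM with DMSO for 3 days, and 351 and 384 CPM with BML-260 for 1 day, against 444 and 482 CPM with DMSO for 1 day. Within each time both BML-260 libraries were below both DMSO libraries, and every library of 3 days was below every one of BML-260 or DMSO for 1 day. The log2 fold change of BML-260 over DMSO was -0.42 at 3 days (SE 0.084, edgeR adjusted p = 0.00028) and -0.33 at 1 day (SE 0.077, edgeR adjusted p = 0.00295). Its size at 3 days moved with the libraries used, at -0.22 without replicate 2 of BML-260 for 3 days and -0.66 without replicate 1. The difference between both effects, -0.09 with a 95% interval of -0.33 to 0.14, was -0.32 and passed without that replicate 1 (edgeR adjusted p = 0.047). At 1 day the call was lost without replicate 2 of DMSO (edgeR adjusted p = 0.078), and DESeq2 made neither call (adjusted p = 0.05 at 3 days and 0.18 at 1 day). Over time with DMSO the log2 fold change was -1.51 (SE 0.080, edgeR adjusted p = 1.4e-13), or 2.84-fold lower at 3 days than at 1 day.

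Hilpda, the other inhibitor and a known target of hypoxia-inducible factor, went the opposite way. It had 18.8 and 18.7 CPM with BML-260 for 3 days, against 13.1 and 14.5 CPM with DMSO for 3 days. After 1 day there were 10.8 and 9.29 CPM with BML-260, against 7.22 and 8 CPM with DMSO. The treatments did not overlap at either time, and all 4 libraries of 3 days were above all 4 of BML-260 or DMSO for 1 day. The log2 fold change was 0.44 at 3 days (SE 0.099, edgeR adjusted p = 0.00091) and 0.39 at 1 day (SE 0.12, edgeR adjusted p = 0.027). These are small counts, 124 to 372 in a library. At 1 day the call was lost without replicate 1 of BML-260 (edgeR adjusted p = 0.25), without replicate 1 or 2 of DMSO (0.16 and 0.068), and with DESeq2 (adjusted p = 0.1). Over time with DMSO it rose by 0.86 on the log2 scale (SE 0.12, edgeR adjusted p = 1.9e-06).

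**Figure D2:**
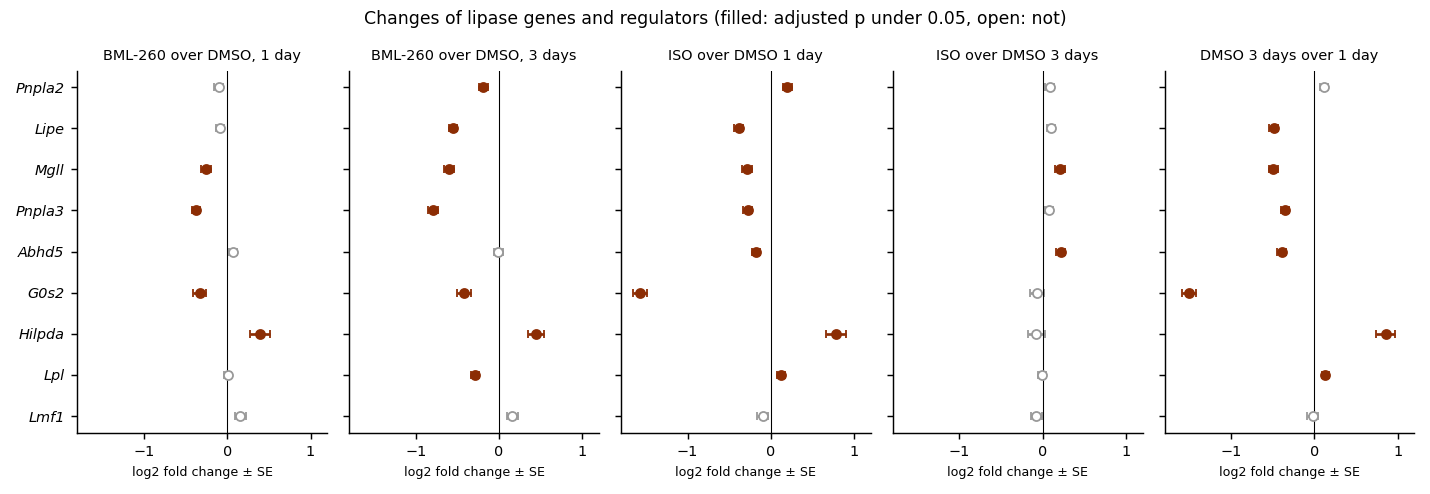
Log2 fold change with its SE (x axis) of the 9 measured genes (rows) in 5 comparisons (panels); filled points have an adjusted p under 0.05 and open ones do not. Pnpla3, Mgll and Lipe stand furthest left for BML-260 at 3 days (-0.79, -0.61 and -0.55), and Hilpda stands right of 0 in every panel but that of ISO over DMSO for 3 days.

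Ratios between genes within a library do not depend on the scaling between libraries, and they are given as log2 ratios of counts with no test. The ratio of G0s2 to its target Pnpla2 was -2.26 and -2.70 with BML-260 for 3 days, against -2.16 and -2.31 with DMSO for 3 days, and these overlapped. At 1 day it was -0.81 and -0.88 with BML-260, against -0.61 and -0.62 with DMSO. The ratio of Hilpda to Pnpla2 was -5.15 and -5.16 with BML-260 for 3 days, against -5.83 and -5.74 with DMSO for 3 days. At 1 day it was -5.81 and -6.23 with BML-260, against -6.53 and -6.52 with DMSO. Relative to Pnpla2, both BML-260 libraries were thus above both DMSO libraries for Hilpda at each time, and below them for G0s2 at 1 day. Lipe relative to Pnpla2 was lower by 0.36 with BML-260 for 3 days than with DMSO for 3 days, at a mean of -1.02 (SD 0.077) against -0.66 (SD 0.051, n = 2 each). Mgll relative to Lipe differed by -0.05 in the same comparison, without overlap, at a mean log2 ratio of -1.98 (SD 0.016) with BML-260 for 3 days and -1.93 (SD 0.012) with DMSO for 3 days.

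**Figure D3:**
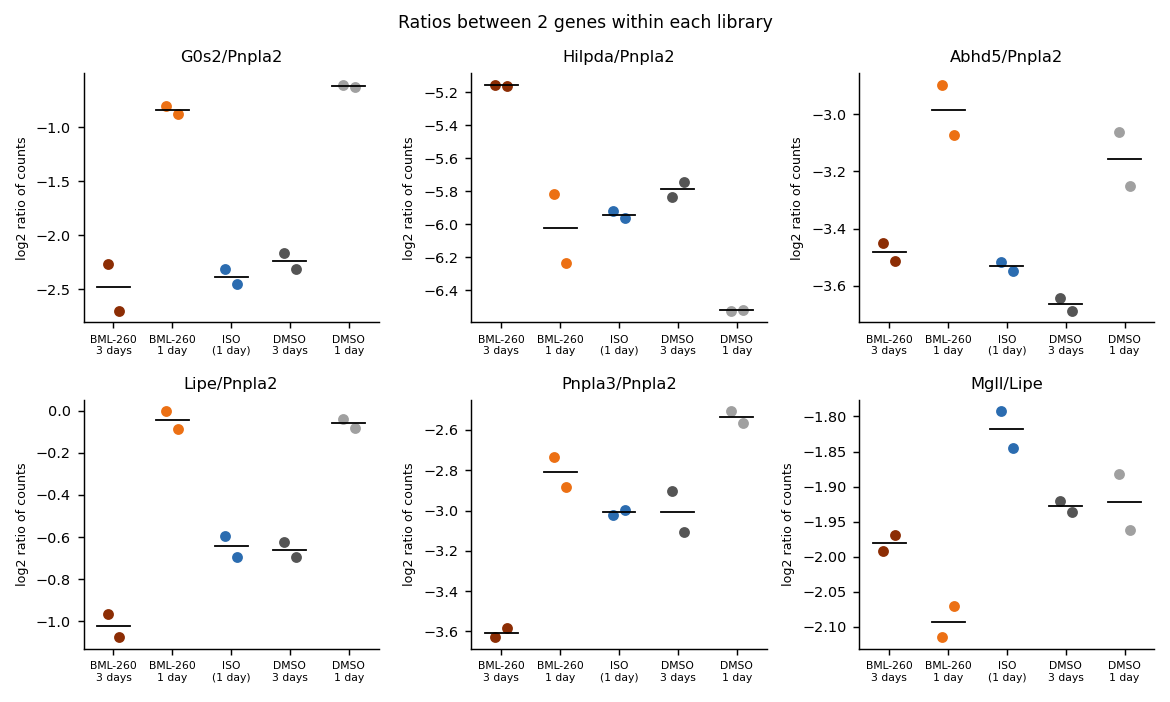
Log2 ratio of the counts of 2 genes (y axis, not starting at 0) in each library, by treatment and time (x axis); points are libraries and lines the means of 2. The ratio of Lipe to Pnpla2 is near 0 in the libraries of BML-260 and DMSO for 1 day and lowest with BML-260 for 3 days (-0.97 and -1.08).

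Compared between genes per kilobase of annotated exon, the inhibitor G0s2 stood above its target Pnpla2 with BML-260 or DMSO for 1 day and below it in the other groups. G0s2 had 422 ± 26.2 CPM per kb with BML-260 for 1 day and 532 ± 31.0 with DMSO for 1 day, and Pnpla2 had 219 ± 21.5 and 235 ± 15.8 CPM per kb in the same groups (SD, n = 2 each). This put G0s2 at 1.93 times the level of Pnpla2 with BML-260 for 1 day and 2.26 times with DMSO for 1 day. At 3 days it was at 0.628 times Pnpla2 with BML-260 and 0.736 times with DMSO, and with ISO at 0.665 times (179 ± 16.2 against 269 ± 6.19 CPM per kb). Hilpda, by contrast, was at 0.0765 times Pnpla2 with BML-260 for 3 days, 0.0493 times with DMSO for 3 days, 0.0416 times with BML-260 for 1 day and 0.0294 times with DMSO for 1 day. Abhd5 stood at 0.0453 times Pnpla2 with BML-260 for 3 days and 0.0399 times with DMSO for 3 days. In the 3-day groups Lpl had the highest level per kb of the 10 genes, 247 ± 7.16 CPM per kb with BML-260 and 302 ± 6.10 with DMSO (SD, n = 2 each). These lengths assume that all annotated exons were counted, which the sources used here do not state.

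Lpl is by count the most abundant of the 10 genes, with 46218 to 63610 counts in a library. It had 2535 and 2641 CPM with BML-260 for 3 days, against 3213 and 3123 CPM with DMSO for 3 days, with no overlap. At 1 day it had 2851 and 2948 CPM with BML-260, within the span of the DMSO libraries at 3017 and 2767 CPM. BML-260 over DMSO gave a log2 value of -0.29 at 3 days (SE 0.047, edgeR adjusted p = 1.9e-05), where the level fell by 18.3%, and 0.004 at 1 day, with a 95% interval of -0.09 to 0.10. The difference between both effects was -0.30 (SE 0.066, edgeR adjusted p = 0.0054), a call that was lost without replicate 1 of DMSO for 3 days (edgeR adjusted p = 0.062).

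Lmf1, the maturation factor of Lpl, had 38.8 and 35.7 CPM with BML-260 for 3 days, against 34.1 and 32.4 CPM with DMSO for 3 days. The 1-day libraries had 37.2 and 38.0 CPM with BML-260, against 33.9 and 33.6 CPM with DMSO. All 4 BML-260 libraries were above all 4 DMSO libraries, but neither log2 fold change passed, at 0.16 at both times (edgeR adjusted p = 0.062 at 3 days and 0.12 at 1 day). With DESeq2 size factors in the same fit the 3-day value was 0.18 and passed (edgeR adjusted p = 0.037), as did 0.22 without replicate 2 of BML-260 for 3 days (edgeR adjusted p = 0.047).

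Gpihbp1 was all but absent from these counts. It had 2 counts in replicate 2 of BML-260 for 1 day and 0 in the other 9 libraries, where a count of 0 allows up to 0.143 to 0.179 CPM (3 counts of a library, counting error only). It did not pass the filter on low counts and was not tested. The defining endothelial markers were near 0 as well: Pecam1 had at most 25 counts in a library and Cdh5 at most 1.

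The ISO result depends on which DMSO group it is set against. Against DMSO for 3 days it differed in 2 of the 9 genes, Abhd5 and Mgll, both higher, beside 19.9% of all genes (10.6% higher and 9.24% lower). Against DMSO for 1 day it differed in 8, beside 41.7% of all genes (21.4% higher and 20.3% lower), with 3 higher (Hilpda, Pnpla2 and Lpl) and 5 lower (G0s2, Lipe, Mgll, Pnpla3 and Abhd5). G0s2 had 166 and 146 CPM with ISO, against 168.5 and 157 CPM with DMSO for 3 days and 444 and 482 CPM with DMSO for 1 day. Its log2 fold change was -1.57 over DMSO for 1 day (SE 0.081, edgeR adjusted p = 4.7e-14), or 2.97-fold lower, and -0.06 over DMSO for 3 days, with a 95% interval of -0.24 to 0.11. Hilpda had 13.5 and 12.8 CPM with ISO, and its log2 fold change was 0.78 over DMSO for 1 day (SE 0.12, edgeR adjusted p = 5.9e-06) and -0.07 over DMSO for 3 days, with a 95% interval of -0.29 to 0.14. For these 2 genes ISO thus lay beside DMSO for 3 days. DMSO for 3 days over DMSO for 1 day gave log2 fold changes of -1.51 for G0s2 and 0.86 for Hilpda, near those of ISO over DMSO for 1 day. Since the time of ISO is uncertain, an effect of ISO and one of time cannot be told apart in the comparison with DMSO for 1 day.

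Among the lipases, Lipe had 547 and 494.5 CPM with ISO and Mgll 158 and 138 CPM. The log2 fold changes over DMSO for 1 day were -0.39 for Lipe, -0.28 for Mgll and -0.28 for Pnpla3 (edgeR adjusted p = 1e-06, 0.00024 and 0.00012). Over DMSO for 3 days Lipe was at 0.10, Pnpla3 at 0.08 and Lpl at -0.01, and none of them passed. Their 95% intervals were -0.01 to 0.21, -0.03 to 0.19 and -0.11 to 0.08. Pnpla2 had 826 and 800 CPM with ISO, above every library of the other groups. Its log2 fold change over DMSO for 1 day was 0.20 (SE 0.053, edgeR adjusted p = 0.0039), a call that was lost without replicate 1 of DMSO for 1 day (edgeR adjusted p = 0.1). Over DMSO for 3 days it was 0.08, with a 95% interval of -0.03 to 0.19. Abhd5 had 72.1 and 68.3 CPM with ISO, between the DMSO groups. Its log2 fold change was -0.18 over DMSO for 1 day (edgeR adjusted p = 0.0079), which was lost without replicate 1 of DMSO for 1 day (0.07), without replicate 2 of ISO (0.12) and with DESeq2 (adjusted p = 0.052). Over DMSO for 3 days it was 0.22 (edgeR adjusted p = 0.005) and Mgll was 0.21 (edgeR adjusted p = 0.0115). Both of these calls were lost without replicate 1 of ISO (edgeR adjusted p = 0.057 for Abhd5 and 0.25 for Mgll), and that of Mgll without replicate 2 of DMSO for 3 days too (edgeR adjusted p = 0.083). Lpl at 0.12 over DMSO for 1 day (edgeR adjusted p = 0.041) did not pass with upper-quartile scaling (0.26), with only the groups compared in the fit (0.076), without replicate 2 of DMSO for 1 day (0.43) or without replicate 1 of ISO (0.32).

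Set directly against ISO, with the same doubt on time, BML-260 for 1 day had 4 of the 9 genes higher and 3 lower, beside 44.4% of all genes (21.6% higher and 22.8% lower). G0s2 was higher by 1.24 on the log2 scale (SE 0.081, edgeR adjusted p = 2.1e-12), or 2.36-fold, Lipe by 0.30, Abhd5 by 0.25 and Lmf1 by 0.25. The log2 fold changes of those lower were -0.39 for Hilpda, -0.30 for Pnpla2 and -0.12 for Lpl. The call of Hilpda (edgeR adjusted p = 0.0062) was lost without replicate 2 of BML-260 for 1 day (edgeR adjusted p = 0.14). That of Lpl (edgeR adjusted p = 0.046) was lost in 7 of 16 other fits. Mgll and Pnpla3 did not pass, with 95% intervals of -0.09 to 0.15 and -0.21 to 0.01.

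The genes around the lipases were read from lists of related function. Of 35 genes of lipolytic signalling and the lipid droplet's surface, 4 rose and 13 fell with BML-260 for 3 days, beside 17.3% of all genes higher and 18.3% lower (median log2 fold change -0.11, against -0.02 over all genes). With BML-260 for 1 day 4 rose and 6 fell, beside 9.32% of all genes higher and 8.62% lower (median -0.06, against -0.001 over all). Adrb3, the receptor through which noradrenaline sets off lipolysis in brown fat, had 3.40 and 3.92 CPM with BML-260 for 3 days, against 21.3 and 23.5 CPM with DMSO for 3 days. It had 7.34 and 8.18 CPM with BML-260 for 1 day and 7.24 and 6.30 CPM with ISO, against 19.0 and 20.6 CPM with DMSO for 1 day. Every BML-260 and ISO library was thus below every DMSO library, with log2 fold changes of -2.61 for BML-260 at 3 days (SE 0.13, edgeR adjusted p = 1.6e-14), -1.35 for BML-260 at 1 day (SE 0.11, edgeR adjusted p = 3.5e-09) and -1.56 for ISO over DMSO for 1 day (SE 0.12, edgeR adjusted p = 3.7e-11). An antisense gene, Gm45470, overlaps 24.9% of its annotated exon bases.

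Aqp7, the channel that lets glycerol leave the fat cell, had 70.8 and 76.4 CPM with BML-260 for 3 days, against 133 and 136 CPM with DMSO for 3 days (log2 fold change -0.87, SE 0.054, edgeR adjusted p = 2e-12). Hcar1, a lactate receptor that restrains lipolysis, was at -1.01 (SE 0.083, edgeR adjusted p = 3.2e-10) and Irs1, which passes on the antilipolytic signal of insulin, at -0.64 (SE 0.060, edgeR adjusted p = 3.5e-09) in the same comparison. Fabp4, the fatty acid carrier that binds Lipe, had 10310 and 10560 CPM with BML-260 for 1 day, against 6517 and 6268 CPM with DMSO for 1 day, and its log2 fold change was 0.71 (SE 0.041, edgeR adjusted p = 3.8e-12). Activators and restrainers of lipolysis thus stood among the named genes that fell. Those named are the genes of smallest p in the list, and 18 of the 35 were not called with BML-260 for 3 days. Gm9747, on the opposite strand, overlaps 30.9% of the exon bases of Irs1.

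**Figure D4:**
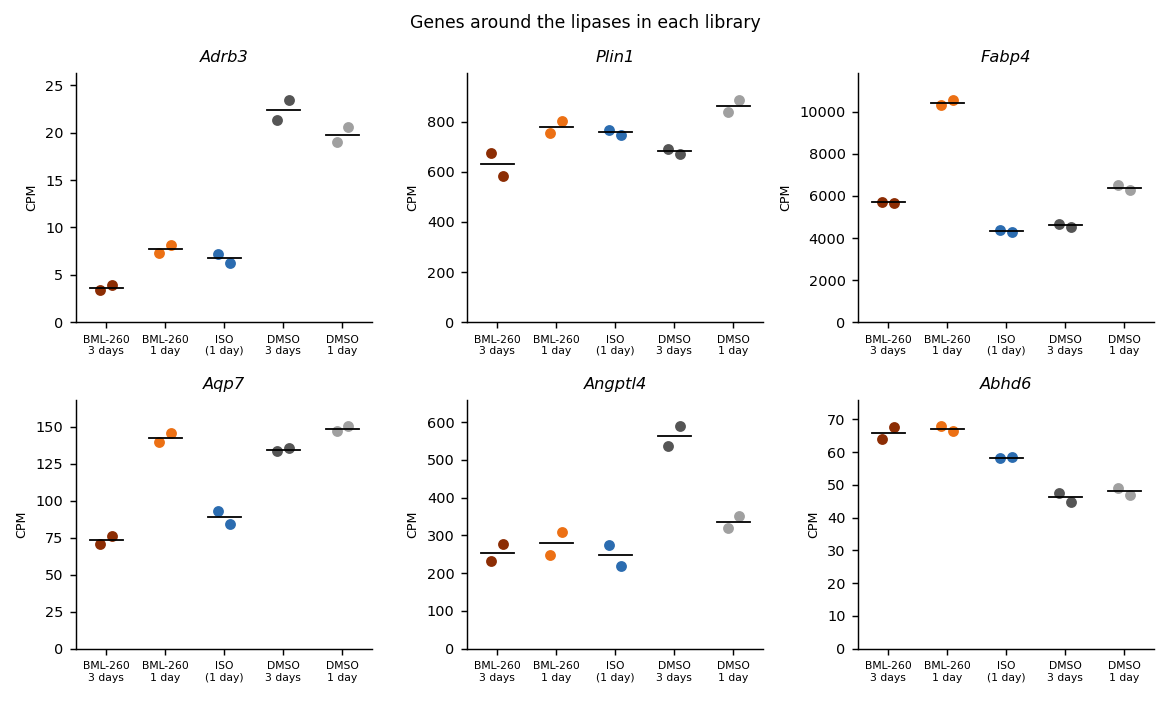
Level in CPM (y axis, from 0) of 6 genes around the lipases in each library, by treatment and time (x axis); points are libraries and lines the means of 2. Adrb3 is at 8.18 CPM or less in all libraries of BML-260 and ISO and at 19.0 CPM or more in all of DMSO, and the 2 highest libraries of Angptl4 are those of DMSO for 3 days (538 and 589 CPM).

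Of 19 measured genes that regulate Lpl or take up lipoproteins, 3 rose and 8 fell with BML-260 for 3 days, beside 35.5% of all genes changed, and 1 rose and 8 fell with BML-260 for 1 day, beside 17.9%. Angptl4, a secreted inhibitor of Lpl, had 232 and 276.5 CPM with BML-260 for 3 days, against 538 and 589 CPM with DMSO for 3 days. Its log2 fold change was -1.15 (SE 0.087, edgeR adjusted p = 8.4e-11), and relative to Lpl it was lower by 0.86 on the log2 scale. With DMSO it rose over time by 0.74 (edgeR adjusted p = 1.5e-07), and the effect of BML-260 at 3 days minus that at 1 day was -0.88 (SE 0.12, edgeR adjusted p = 6.6e-05). Apoe, an apolipoprotein, was at -0.73 with BML-260 for 3 days and at -0.68 with BML-260 for 1 day (edgeR adjusted p = 1.9e-08 and 7.2e-08). Cd36, which takes up fatty acids, was at 0.27 with BML-260 for 1 day (edgeR adjusted p = 0.0001). It had 865 and 834 CPM with BML-260 for 3 days, against 920.5 and 877 CPM with DMSO for 3 days. Its effect at 3 days minus that at 1 day was -0.35 (edgeR adjusted p = 0.0011).

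Of 17 measured other lipases and hydrolases of neutral lipid, 2 rose and 4 fell with BML-260 for 3 days, a share near the 35.5% of all genes changed. With BML-260 for 1 day 3 rose and 2 fell, beside 17.9% of all genes. Abhd6, a monoglyceride lipase that overlaps in substrate with Mgll, had 64 and 67.5 CPM with BML-260 for 3 days, against 47.6 and 44.9 CPM with DMSO for 3 days, and 67.9 and 66.5 CPM with BML-260 for 1 day, against 49.2 and 47.0 CPM with DMSO for 1 day. Its log2 fold changes were 0.51 at 3 days (SE 0.057, edgeR adjusted p = 8.7e-08) and 0.48 at 1 day (SE 0.058, edgeR adjusted p = 8.7e-07), where Mgll fell. Abhd15 was at -0.62 with BML-260 for 3 days (SE 0.088, edgeR adjusted p = 3.7e-06), with 43% of its exon bases shared with genes on the opposite strand. Of 11 genes that put fatty acids back into triglyceride, 3 rose and 4 fell with BML-260 for 3 days, beside 35.5% of all genes changed, and 1 rose and 3 fell with BML-260 for 1 day, beside 17.9%. Pck1, which supplies the glycerol backbone from pyruvate, was at -1.03 and Gpam, the acyltransferase that begins the pathway, at -0.40 with BML-260 for 3 days, while Acsl4, which activates fatty acids, was at 0.47 (edgeR adjusted p = 6.15e-07, 1.4e-07 and 1.9e-07).

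Markers of the adipocyte itself moved in the same comparisons. Of the 10 brown adipocyte markers 4 rose and 5 fell with BML-260 for 3 days, beside 35.5% of all genes changed (median log2 fold change -0.28, against -0.02 over all). With BML-260 for 1 day 4 rose and 5 fell, beside 17.9% of all genes (median -0.15, against -0.001 over all). Adipoq, the adipocyte hormone adiponectin, had 458 and 438.5 CPM with BML-260 for 3 days, against 938 and 935 CPM with DMSO for 3 days. Other markers were higher in the same comparison. Ucp1 had 32.85 and 30.7 CPM with BML-260 for 3 days, against 12.3 and 13.15 CPM with DMSO for 3 days. Cidea had 232 and 242 CPM, against 196 and 205 CPM. Plin1, which coats the droplet and holds Abhd5 until lipolysis starts, had 675 and 585 CPM with BML-260 for 3 days. With DMSO for 3 days it had 691 and 671 CPM, and the groups overlapped. The part of these shifts in the lipase values was not tested.

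Genes whose group means lay closest to each of the 9 over the 5 groups were ranked among 9005 genes of at least 10 CPM, predicted loci passed over, by the root mean square difference of centred log2 CPM. For G0s2 these were Gpd1, a glycerol-3-phosphate dehydrogenase, at 0.097 and Id1 at 0.12, over a range of G0s2 of 1.94. For Hilpda they were Cpeb1 at 0.031 and the glucose transporter Slc2a1 at 0.082. For Pnpla3 they were Pwwp2b at 0.061 and the potassium channel Kcnk3 at 0.068. Over 5 points such closeness is a description only.

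In the authors' deposited tables of changed genes, 3 of the 10 appear for BML-260 over DMSO at 1 day, namely Pnpla3, G0s2 and Mgll, with log2 fold changes of -0.35, -0.32 and -0.24. In the authors' deposited table for 3 days there are 6: Pnpla3 at -0.75, Mgll at -0.57, Lipe at -0.53, Lpl at -0.28, Pnpla2 at -0.18 and Hilpda at 0.40. G0s2 is not in that 3-day list and Hilpda is not in the 1-day list. The share of all genes that each list holds was not computed. Whether 3 or 6 of the 10 is more than among other genes therefore cannot be read from these lists. For G0s2 at 1 day the adjusted p deposited by the authors is 1.04e-06, where DESeq2 on all 10 libraries gave an adjusted p of 0.18. The reason for this difference was not tested.

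Annotated neighbours limit what counts per symbol can separate, since no source used here gives the strand setting of the counting. On GENCODE M21 (GRCm38), exons of 4 of the 10 genes overlap those of another gene. For Lipe (chr7:25379527-25398710, minus strand) the antisense gene 4732471J01Rik covers 15.6% of exon bases, and for Abhd5 (chr9:122351608-122381524, plus strand) the antisense gene A730085K08Rik covers 15.9%. For Pnpla3 (chr15:84167837-84187236, plus strand) Gm49513 on the same strand covers 6.78%, and for Mgll (chr6:88724412-88828360, plus strand) the antisense gene Gm26588 covers 3.29%. G0s2 (chr1:193272161-193273217, minus strand), Hilpda (chr6:29272488-29275446, plus strand), Pnpla2 (chr7:141455198-141460743, plus strand) and Lpl (chr8:68880491-68907448, plus strand) have no such overlap, nor have Lmf1 and Gpihbp1. All 10 are protein-coding.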

How the data were processed

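RNA of brown adipocytes was sequenced in 10 libraries, 2 in each of 5 groups set by the titles and the treatment and time labels. The submitters' processing notes name bcl2fastq (2.17.1.14) and, among the tools, DESeq2, bedtools and TopHat2 (2.1.1). They name mm10 and mm9 without saying what each was used for. No source used here gives the annotation, the counting rule or the strand setting. The authors deposited raw counts per gene symbol (24640 symbols, of which 26 had been turned into dates by spreadsheet software). They also deposited lists of changed genes that give, per the file headers, a log2 fold change and adjusted p-value for each. Only the lists of BML-260 over DMSO at 1 and 3 days were used.

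Counts were filtered with filterByExpr (minimum count 10, minimum total 15), scaled by TMM and fitted with a mean for each group across the 10 libraries, leaving 5 residual degrees of freedom, by edgeR 4.0.16 in R 4.3.3. Its quasi-likelihood test was adjusted by Benjamini-Hochberg over 15212 genes and called at adjusted p under 0.05. SE is the absolute log2 fold change over the square root of F. A prior count of 2 was used on the log2 scale. The biological coefficient of variation was 3.39%, and libraries sharing a group had mean chi-squares of 1.92 to 3.09 per gene, where 1 is counting error alone, so none was counted as a library deposited more than once. The 7 comparisons were BML-260 over DMSO at each time, the difference of these effects, ISO over each DMSO group, BML-260 for 1 day over ISO, and DMSO at 3 days over 1 day. Comparisons share groups. The test was checked on simulated data. Exon lengths came from GENCODE M21, promoters from RefSeq.

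Named are all 10 genes, up to 4 genes of smallest p from each list in each comparison, the 2 closest genes of each by group means (at least 10 CPM; not all are reported here), and members of the marker lists. The members and lists were chosen with earlier results of these data known, so nothing here is independent of them. In the lists, Gk was read from its row Gyk. Alternatives were other scalings, no filter, DESeq2 1.42.0, only the groups compared, a replicate block and leaving out each library.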

Additional observations from a re-analysis of the deposited data

Results flagged for a closer look

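The effect of BML-260 over DMSO differed between 3 days and 1 day for 4 of the genes, by a test of the difference itself (edgeR's quasi-likelihood test over all 15212 genes). The difference of log2 fold changes was -0.46 for Lipe (SE 0.074, adjusted p = 0.00027), -0.42 for Pnpla3 (SE 0.078, adjusted p = 0.0012), -0.35 for Mgll (SE 0.084, adjusted p = 0.0088) and -0.30 for Lpl (SE 0.066, adjusted p = 0.0054). All 4 were further down at 3 days. The background was 8.44% of all genes. For Mgll and Lpl the call did not hold without some of the libraries, as given beside those genes above.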

How the results depend on the processing

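Of 63 values (9 genes in 7 comparisons) 39 were called, where 8.44% to 44.4% of all genes were called, depending on the comparison. Of these 39 calls 24 held in all 16 alternatives, a count that was not made over all genes. The other 15 were lost in at least 1, and none reversed. The counts that moved by over 1.5 times did so with DESeq2 and when libraries were left out. With DESeq2, BML-260 over DMSO at 1 day gave 1746 genes and 2 of the 9 (Pnpla3 and Mgll), against 2728 and 4 with edgeR. The difference between times gave 721 against 1284 genes, and ISO over DMSO for 3 days 1864 against 3026. Leaving out 1 library at a time gave, for BML-260 at 1 day, 1235 to 2843 genes and 2 to 5 of the 9, with 2 without replicate 1 of BML-260 for 1 day (1748 genes) or replicate 2 of DMSO for 1 day (1235 genes), and 1810 genes without replicate 2 of BML-260 for 1 day. For the difference between times it gave 659 to 1371 genes and 2 to 5 of the 9 (2 without replicate 1 of DMSO for 3 days, with 678 genes; 659 genes without replicate 2 of DMSO for 1 day, 760 without replicate 1 of BML-260 for 3 days and 794 without replicate 2 of DMSO for 3 days). For ISO over DMSO for 3 days it gave 1469 to 3073 genes and 0 to 2 of the 9, with 0 without replicate 1 of ISO, 1 without replicate 2 of DMSO for 3 days (1711 genes), 1693 genes without replicate 1 of DMSO for 3 days and 1469 without replicate 2 of ISO.

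Values that changed sign were all uncalled in the fit of all 10 libraries. There the furthest from 0 was -0.09, for G0s2 in the difference between times. Leaving out libraries took some of them further from 0, as the ranges here give. For Abhd5 and BML-260 at 3 days these were 0.0101 with DESeq2 size factors and 0.0131 with DESeq2, and -0.0383 to 0.0232 leaving out libraries. For Lpl and BML-260 at 1 day they were -0.00958 with upper-quartile scaling, -0.00266 with only the groups compared, and -0.0586 to 0.0682 leaving out libraries. For Lmf1 the difference between times was -0.0169 with upper-quartile scaling and -0.0546 to 0.0684 leaving out libraries. Leaving out libraries also spanned 0 in the difference between times for Pnpla2 (-0.186 to 0.0134), Hilpda (-0.0619 to 0.158) and G0s2 (-0.324 to 0.114). It did so in BML-260 over ISO for Mgll (-0.0722 to 0.132), in ISO over DMSO for 3 days for Lpl (-0.0602 to 0.0354), Hilpda (-0.133 to 0.0103) and G0s2 (-0.156 to 0.0278), and in DMSO over time for Lmf1 (-0.066 to 0.00458). The cause was not tested.

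Upper-quartile scaling made 40.3% of the called genes higher for ISO over DMSO for 1 day (51.3% with TMM), 40.4% for ISO over DMSO for 3 days (53.5% with TMM) and 38.5% for BML-260 at 3 days (48.5% with TMM). With DESeq2 it was 65.3% for ISO over DMSO for 3 days and 57.4% for the difference between times (46.6% with edgeR). No scaling moved the median of all genes by over 0.1.

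The labels do not say that the replicate numbers pair the libraries, and the data leave it unclear: deviations of same-numbered libraries correlated at -0.09 to 0.20 over 10 pairs of groups, 5 of them over 0.1 and 5 not, so the numbers were not treated as pairs. With the replicate number as a block 2898 genes were called for BML-260 at 1 day, 5555 at 3 days, 1474 for the difference, 6498 for ISO over DMSO for 1 day and 3190 for ISO over DMSO for 3 days, and the counts among the 9 genes did not change. With 2 libraries a group, differences under about the intervals printed above cannot be resolved, and Hilpda, with the fewest counts of the 9, has the widest errors.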

Other observations

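The genes around the lipases also differed with ISO. Of the 35 genes of lipolytic signalling and the droplet surface, 5 were higher and 9 lower with ISO than with DMSO for 3 days, beside 19.9% of all genes changed. Against DMSO for 1 day 5 were higher and 16 lower, beside 41.7% of all genes (median log2 fold change -0.19, against -0.004 over all). Aqp7, the glycerol channel, had 93.3 and 84.3 CPM with ISO, against 133 and 136 CPM with DMSO for 3 days and 147 and 150.3 CPM with DMSO for 1 day, below all 4. Its log2 fold change was -0.60 over DMSO for 3 days (SE 0.053, edgeR adjusted p = 1e-08) and -0.75 over DMSO for 1 day (SE 0.053, edgeR adjusted p = 1.7e-11). Plin5, a droplet protein that binds Pnpla2 and Abhd5, was at 0.63 over DMSO for 3 days (SE 0.083, edgeR adjusted p = 5.2e-06). Its levels with ISO, 34.6 and 30.0 CPM, overlapped the 32.4 and 30.3 CPM of DMSO for 1 day. Of the 11 genes that put fatty acids back into triglyceride, 5 were higher and 1 lower with ISO than with DMSO for 3 days, beside 10.6% of all genes higher and 9.24% lower. Among them Dgat2, which makes triglyceride from diglyceride, was at 0.48, and Acsl3, which activates fatty acids, at 0.30 (edgeR adjusted p = 3.7e-07 and 0.00048). Against DMSO for 1 day 3 of the 11 were higher and 4 lower, beside 41.7% of all genes changed. There Acsl3 was at 0.54 (edgeR adjusted p = 3.6e-08). Dgat2, at 204 and 189 CPM with ISO, was below its 219 and 214.5 CPM with DMSO for 1 day.

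Re-esterification genes also differed between the times in the DMSO libraries. At 3 days over 1 day 3 of the 11 were higher and 4 lower, beside 18.1% of all genes higher and 16.8% lower. The log2 fold changes were -0.65 for Agpat2, -0.62 for Dgat2, -0.50 for Acsl1 and -0.36 for Dgat1 (edgeR adjusted p = 2.1e-09, 8.1e-10, 7.7e-09 and 9.1e-07). Acsl4 went the other way, with 145 and 137 CPM at 3 days against 115 and 107 CPM at 1 day. Adrb1, another adrenergic receptor that can set off lipolysis, was at -0.99 (SE 0.099, edgeR adjusted p = 1.3e-08), and Angptl4 at 0.74.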
